A study of Homo sapiens with 11 samples.

Results

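CC chemokines, the tumour necrosis factor ligand TNFSF15 and colony-stimulating factors were followed at the RNA level in A673sh cells, an Ewing sarcoma line that carries a doxycycline-inducible shRNA against the fusion oncogene EWS-FLI1. The set holds 7 genes, CCL2, CCL5, CCL7, CCL20, TNFSF15, CSF1 and CSF2, and takes every probe set that the platform annotation gives to one of them alone. Of these, 6 genes had a named probe set, 12 probe sets of the 54675 on the array. CSF2 was not analysed here. The genes were chosen on the values of these same arrays, so their levels and differences are given as a description and without a test.

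The 11 samples were each profiled on 1 Affymetrix HG-U133 Plus 2 array. Cells transfected with an shRNA against FOXO1 (sh-FOXO1) or with a scrambled shRNA (sh-scrambled) were taken with 1 µg/ml doxycycline for 48 h or without doxycycline, with 2 arrays in each of these 4 groups. A further 3 groups of 1 array each, all without doxycycline, came from cells transfected with FOXO1-T24A/S256A/S319A, which resists phosphorylation by AKT, with FOXO1-S249A/S298A, which resists phosphorylation by CDK2, or with empty vector. All groups share 1 cell line carrying the inducible construct. An effect of doxycycline itself therefore cannot be told apart from EWS-FLI1 knockdown. Transfection was transient, and no source used here gives the FOXO1 shRNA sequence behind these arrays.

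CC chemokines are small secreted proteins that bind G protein-coupled receptors on leukocytes and direct their migration. CCL2 and CCL7 attract monocytes through CCR2, CCL5 attracts T cells and monocytes, and CCL20 attracts cells bearing CCR6. TNFSF15 is a ligand of the receptor TNFRSF25 that costimulates T cells and restrains endothelial growth, and CSF1 keeps macrophages alive through CSF1R. Many such genes are targets of NF-kB, whose activity is limited by the inhibitors it induces, among them NFKBIA and TNFAIP3.

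Upstream sequences are shown for CCL7, CCL20 and TNFSF15, the 3 measured genes with an entry in the promoter set used. CCL2, CCL5 and CSF1 had no entry. They are the 250 bases before the start site in RefSeq (GRCh38.p14), 5′ to 3′ on the gene's strand. Capitals mark matches to the NF-kB letters GGGNNTTNCC or the AP-1 letters TGANTCA on either strand. The CCL7 window is chr17:34269971-34270220 (plus strand), that of CCL20 is chr2:227813592-227813841 (plus strand), and that of TNFSF15 is chr9:114792531-114792780 (minus strand), which lies inside the annotated gene.
CCL7: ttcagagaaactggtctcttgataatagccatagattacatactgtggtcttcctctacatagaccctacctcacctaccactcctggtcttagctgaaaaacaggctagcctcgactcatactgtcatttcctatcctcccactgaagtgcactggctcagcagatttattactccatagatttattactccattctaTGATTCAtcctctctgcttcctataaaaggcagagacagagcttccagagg
CCL20: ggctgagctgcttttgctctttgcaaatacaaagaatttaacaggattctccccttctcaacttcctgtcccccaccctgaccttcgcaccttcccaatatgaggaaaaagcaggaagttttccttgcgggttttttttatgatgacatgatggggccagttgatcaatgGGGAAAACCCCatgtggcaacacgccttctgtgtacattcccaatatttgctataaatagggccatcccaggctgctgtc
TNFSF15: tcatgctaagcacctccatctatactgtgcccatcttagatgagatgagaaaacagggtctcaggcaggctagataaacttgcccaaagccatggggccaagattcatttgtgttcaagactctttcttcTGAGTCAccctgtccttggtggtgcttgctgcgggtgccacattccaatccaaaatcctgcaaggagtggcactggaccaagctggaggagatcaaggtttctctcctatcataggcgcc

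The CCL20 window held 2 overlapping matches to the NF-kB letters, both on the reverse strand, between 80 and 70 bases before the start. The windows of CCL7 and TNFSF15 each held 1 AP-1 site, TGATTCA at 51 to 45 bases and TGAGTCA at 120 to 114 bases before the start, which match on both strands. Neither the FOXO letters GTAAACA nor the repeat GGAAGGAA, of the kind that EWS-FLI1 binds, was found in any of these windows. Of 35116 RefSeq promoter windows of the same length, 5.07% held the NF-kB letters, 6.57% the AP-1 letters, 2.98% the FOXO letters and 3.06% the GGAA repeat. A match describes the letters only.

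Values are log2 levels per probe set as normalized by the authors, and a difference of 1 is a 2-fold change. The lower quartile of all probe sets lay between 4.07 and 4.10 and the median between 5.10 and 5.17 on every array, and arrays of 1 group correlated at 0.9954 to 0.9979. FLI1, part of which is in the fusion, was read by 204236_at. With doxycycline it was at 7.17 and 7.25 in sh-FOXO1 cells and at 6.92 and 6.93 in sh-scrambled cells. Without doxycycline the levels were 8.84 and 8.56 in sh-FOXO1 cells and 8.84 and 8.71 in sh-scrambled cells. FOXO1 by 202723_s_at was at 4.97 and 4.80 in sh-FOXO1 cells without doxycycline, against 5.86 and 5.81 in sh-scrambled cells. With doxycycline it was at 5.76 and 5.75 in sh-FOXO1 cells, against 7.35 and 7.04 in sh-scrambled cells. By this probe set the silenced cells with doxycycline were thus near the level of sh-scrambled cells without it. By 202724_s_at they lay above it, at 6.18 and 6.38, against 5.87 and 6.02 in sh-scrambled cells without doxycycline. The leukocyte markers with a named probe set (7 of 9 listed, among them PTPRC, CD14 and CD3E) had a summed level between 7.86 and 7.89 with doxycycline, and between 7.77 and 7.86 without it in the shRNA groups. It was 7.59 with AKT-resistant and 7.42 with CDK2-resistant FOXO1, against 7.52 with empty vector. The level of PTPRC, the common leukocyte antigen, was 3.72 to 3.81 with doxycycline and 3.78 to 3.98 without it in the shRNA groups, under the lower quartile on each of these arrays. Other leukocyte markers were not as low. AIF1 was at 5.83 to 6.30 and ITGAM at 5.31 to 5.69 on the shRNA arrays, above the median. Of the 7 markers, 5 lay under the median in sh-FOXO1 cells without doxycycline and 4 in each other shRNA group.

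Markers of other cell types did move with the groups. The summed level of 6 fibroblast markers was 13.53 to 13.64 with doxycycline, against 12.40 to 12.45 in sh-FOXO1 cells and 11.74 to 12.19 in sh-scrambled cells without it, with LUM under the lower quartile on every shRNA array. That of 4 endothelial markers was 8.60 to 8.69 in sh-FOXO1 and 7.66 to 7.79 in sh-scrambled cells with doxycycline, against 7.59 and 7.01 to 7.06 without it. KDR was at 8.13 and 8.05 in sh-FOXO1 and 6.60 and 6.47 in sh-scrambled cells with doxycycline, against 6.21 and 6.25 and against 4.14 and 4.13 without it, while CDH5 stayed between 3.87 and 4.12 on the shRNA arrays. On the plasmid arrays the fibroblast sum was 11.47 with AKT-resistant and 11.84 with CDK2-resistant FOXO1, against 11.66 with empty vector. Single markers moved apart on the AKT-resistant array, with DCN at 8.29, COL1A2 at 6.36 and KDR at 5.04, against 5.78, 7.13 and 4.14 with empty vector. Summed levels of 8 Ewing sarcoma markers were 13.06 to 13.37 with doxycycline, against 14.08 to 14.33 without it in the shRNA groups. The part of these shifts in the results was not tested. All samples were the same cultured line, so the markers describe RNA within that line. A change in some of its cells cannot be told apart from a change in all of them in bulk samples.

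**Figure D1:**
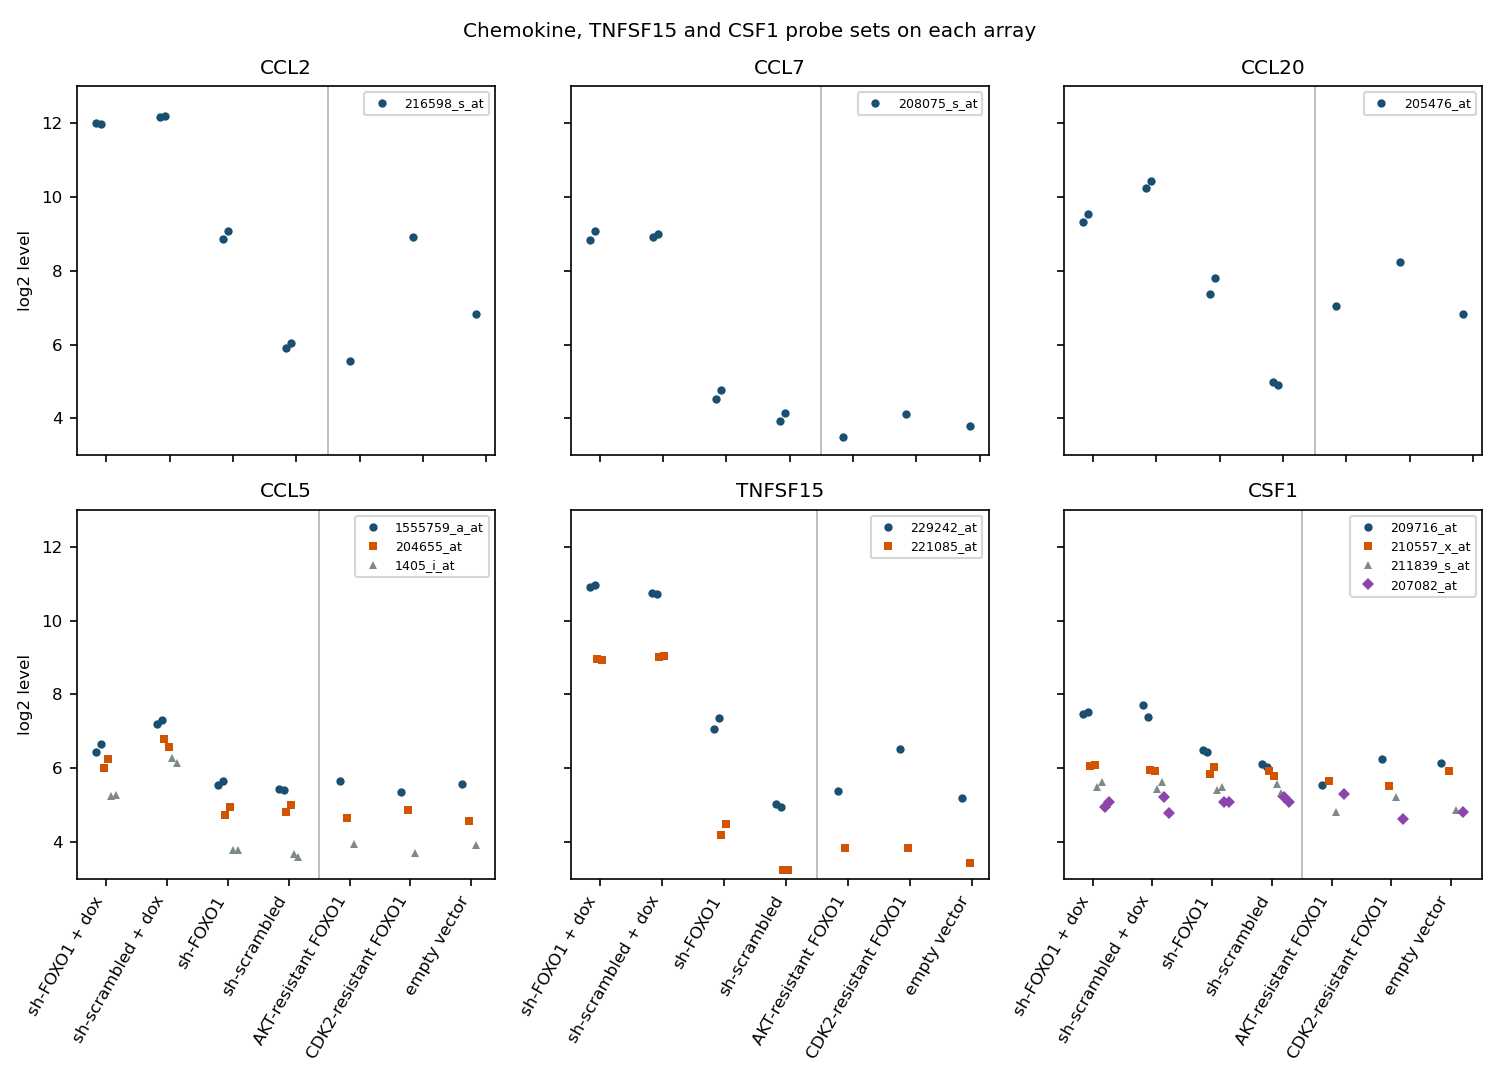
Log2 level (y axis) of each probe set of the 6 genes across the 11 arrays, with the groups on the x axis; each point is 1 array and each marker shape 1 probe set, with the shRNA groups left of the grey line and the plasmid groups right of it. CCL2 lies at 12.15 and 12.18 in sh-scrambled cells with doxycycline and at 5.92 and 6.03 in sh-scrambled cells without it.

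With doxycycline all 6 measured genes were higher than without it in sh-scrambled cells, by 1.48 for CSF1 up to 6.19 for CCL2 on the log2 scale. CCL2 was at 12.15 and 12.18 in sh-scrambled cells with doxycycline, against 5.92 and 6.03 without it, a difference of 6.19 (standard error 0.09) or 73.0-fold. Its neighbour CCL7 was at 8.90 and 9.00 with doxycycline, against 3.92 and 4.15 without it, a difference of 4.92 (standard error 0.12). The groups did not overlap for either gene. The share of all genes whose groups separate in this way was not counted. The genes were also chosen on these arrays, so nothing is read from a lack of overlap here or below. CCL7 without doxycycline lay around the lower quartile, so its fold is uncertain.

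CCL20, the ligand of CCR6, was at 10.23 and 10.44 in sh-scrambled cells with doxycycline, against 4.99 and 4.90 without it. The difference was 5.39 (standard error 0.15), or 41.8-fold. CCL5 differed less. Its probe set with the largest spread, 1405_i_at, was at 6.29 and 6.14 with doxycycline, against 3.67 and 3.60 without it, a difference of 2.58 (standard error 0.08). Without doxycycline this probe set lay under the lower quartile, so the size is uncertain, and the other 2 CCL5 probe sets gave 1.82 and 1.78 in the same direction.

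TNFSF15 was higher by both of its probe sets. By 229242_at it was at 10.75 and 10.71 in sh-scrambled cells with doxycycline, against 5.03 and 4.95 without it, a difference of 5.74 (standard error 0.10). By 221085_at it was at 9.03 on both arrays with doxycycline, against 3.24 on both without it, a difference of 5.79 (standard error 0.09) whose exact size is uncertain, since 3.24 lies under the lower quartile. CSF1, the macrophage growth factor, was at 7.71 and 7.40 by 209716_at with doxycycline, against 6.12 and 6.03 without it, a difference of 1.48 (standard error 0.10). The other 3 CSF1 probe sets differed by −0.17 to 0.09, so that the higher level was seen in 1 of 4 probe sets.

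In sh-FOXO1 cells all 6 measured genes were also higher with doxycycline than without it, by smaller amounts. CCL2 was at 11.99 and 11.96 in sh-FOXO1 cells with doxycycline, against 8.87 and 9.08 without it, a difference of 3.00. CCL7 was at 8.84 and 9.07 with doxycycline, against 4.52 and 4.77 without it, a difference of 4.31. Neither pair of groups overlapped.

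CCL20 was at 9.32 and 9.53 in sh-FOXO1 cells with doxycycline, against 7.36 and 7.79 without it, a difference of 1.86. TNFSF15 by 229242_at was at 10.91 and 10.96 with doxycycline, against 7.06 and 7.35 without it, a difference of 3.73. These groups did not overlap either. CCL5 by 1405_i_at was at 5.25 and 5.27 with doxycycline, against 3.78 and 3.80 without it, a difference of 1.46. The levels without doxycycline lay under the lower quartile, so the size is uncertain, and the other CCL5 probe sets gave 0.94 and 1.28. CSF1 by 209716_at was at 7.47 and 7.51 with doxycycline, against 6.50 and 6.45 without it, a difference of 1.02, and its other 3 probe sets gave −0.07 to 0.15.

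Across all 12326 genes tested, a knockdown difference was called at an adjusted p under 0.05 (limma) and past a log2 difference of 1. By this rule 8.10% of genes were higher and 7.49% lower in sh-scrambled cells, and 7.27% higher and 6.38% lower in sh-FOXO1 cells. The 6 measured genes were all called higher in both, which restates how they were chosen. Their median difference was 2.43 for sh-FOXO1 cells, beside −0.07 over all genes tested, and 5.15 for sh-scrambled cells, beside −0.06. CCL7, the 3 CCL5 probe sets and TNFSF15 by 221085_at reached the 60th percentile, needed to pass the filter, on doxycycline arrays alone, so the pass itself required a higher level there. For CCL5 by 1405_i_at the arrays that reached it were the 2 of sh-scrambled cells with doxycycline.

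**Figure D2:**
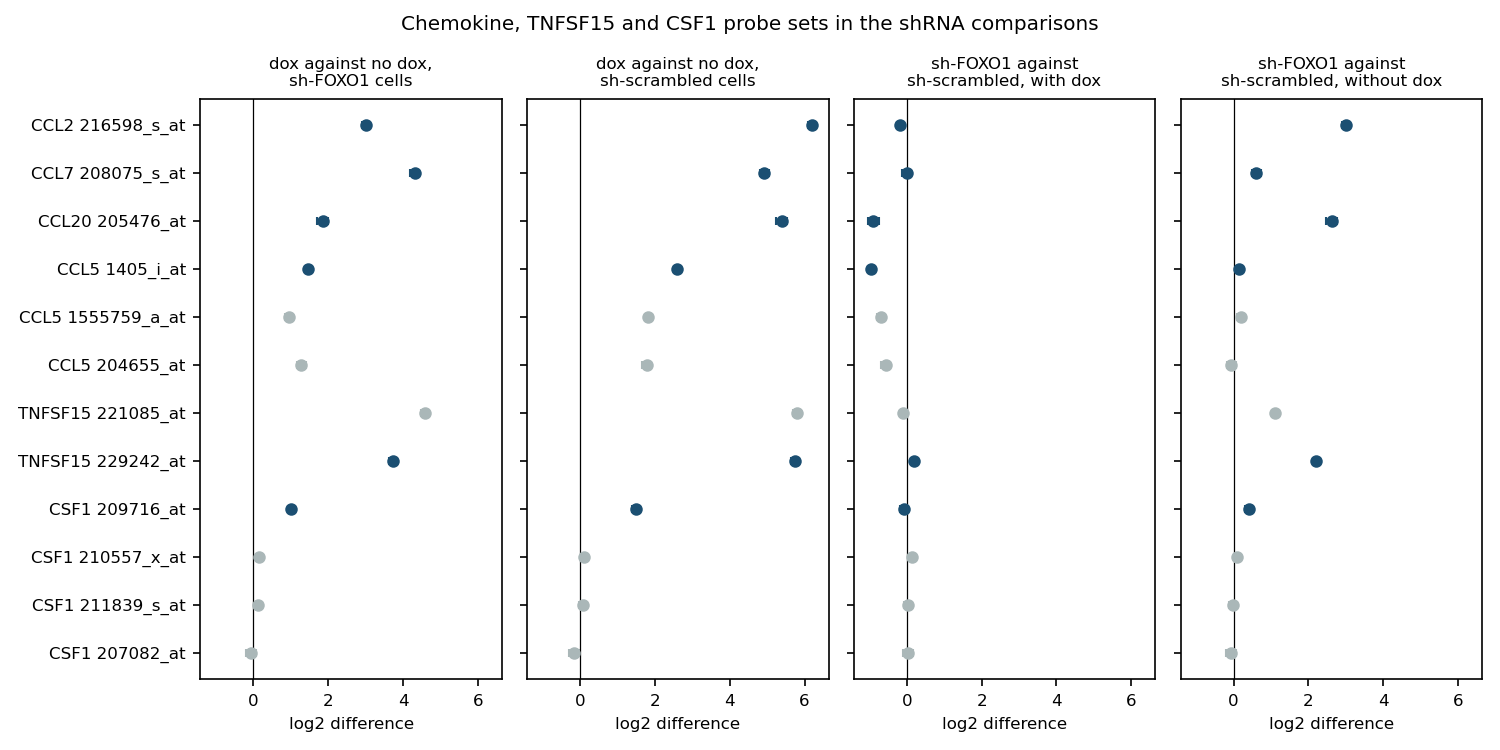
Log2 differences (x axes, bars show 1 standard error of the limma model) of the 12 probe sets (rows) in 4 comparisons of 2 arrays against 2; dark points are the probe sets used for the gene and pale points the others. Differences with doxycycline reach 4.58 in sh-FOXO1 cells and 6.19 in sh-scrambled cells, while those of sh-FOXO1 against sh-scrambled cells lie between −0.96 and 0.20 with doxycycline and reach 3.00 without it.

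Without doxycycline, with EWS-FLI1 still present, sh-FOXO1 cells had more CCL2, CCL20 and TNFSF15 RNA than sh-scrambled cells. CCL2 was at 8.87 and 9.08 in sh-FOXO1 cells, against 5.92 and 6.03 in sh-scrambled cells, a difference of 3.00 (standard error 0.09) or 7.99-fold. CCL20 was at 7.36 and 7.79 in sh-FOXO1 cells, against 4.99 and 4.90 in sh-scrambled cells, a difference of 2.63 (standard error 0.15) or 6.17-fold. TNFSF15 was at 7.06 and 7.35 in sh-FOXO1 cells, against 5.03 and 4.95 in sh-scrambled cells, a difference of 2.22 (standard error 0.10). Its probe set 221085_at gave 1.11 in the same direction, where sh-scrambled cells at 3.24 lay under the lower quartile.

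The other 3 genes differed less. CCL7 was at 4.52 and 4.77 in sh-FOXO1 cells, against 3.92 and 4.15 in sh-scrambled cells, a difference of 0.61 (standard error 0.12). CCL5 differed by 0.16 and CSF1 by 0.40. The rule used for all genes, with a limit of 0.7 here, called 3.45% of them higher and 2.33% lower. It marks CCL2, CCL20 and TNFSF15, 3 of the 6, as higher, which restates how the genes were chosen and is no test of them. The median of the 6 differences was 1.41, beside 0.01 over all genes. FLI1 by 204236_at differed by −0.07 in this comparison.

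With doxycycline the same comparison gave small differences. CCL2 was at 11.99 and 11.96 in sh-FOXO1 cells, against 12.15 and 12.18 in sh-scrambled cells, a difference of −0.19. CCL7 differed by 0.00, with overlapping arrays, and CSF1 by −0.07. TNFSF15 differed by 0.20 by 229242_at and by −0.09 by 221085_at. CCL20 was at 9.32 and 9.53 in sh-FOXO1 cells, against 10.23 and 10.44 in sh-scrambled cells, a difference of −0.90 (standard error 0.15).

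CCL5 by 1405_i_at was at 5.25 and 5.27 in sh-FOXO1 cells, against 6.29 and 6.14 in sh-scrambled cells, a difference of −0.96 (standard error 0.08). Its other probe sets gave −0.70 and −0.56. The rule for all genes called 2.37% lower and 3.08% higher. It marks CCL5 and CCL20, 2 of the 6, as lower, again with nothing read from it. By 1555759_a_at, at −0.70, CCL5 was not past the limit. By 1405_i_at CCL5 reached the level needed to pass the filter in sh-scrambled cells with doxycycline alone, so the filter itself favoured a lower value in sh-FOXO1 cells. FLI1 by 204236_at was 0.29 higher in sh-FOXO1 cells with doxycycline (adjusted p = 0.065, limma). Other FLI1 probe sets did not show this. By 210786_s_at the levels were 5.54 and 5.81, against 5.65 and 5.70 in sh-scrambled cells with doxycycline. By 211825_s_at they were 5.69 and 5.76, against 5.73 and 5.78. Whether a difference in FLI1 had a part in the lower CCL5 and CCL20 levels was not tested.

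The interaction is the knockdown difference in sh-FOXO1 cells minus that in sh-scrambled cells. By the probe set used for each gene it was below 0 for all 6 genes. It was −3.53 (standard error 0.21) for CCL20, −3.19 (standard error 0.12) for CCL2, −2.01 (standard error 0.14) for TNFSF15 and −1.11 (standard error 0.11) for CCL5. By 221085_at it was −1.21 for TNFSF15, and by the other 2 probe sets of CCL5 it was −0.88 and −0.49, the last inside the limit of 0.7. The rule for all genes called 2.45% lower and 1.46% higher. It marks the 4 genes above as lower, from which nothing is read, since these arrays were used to choose them. CCL7 at −0.61 and CSF1 at −0.47 were inside the limit. The other CSF1 probe sets did not share the direction and gave 0.04 to 0.10. The median was −1.56, beside −0.00 over all genes.

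The arrays behind the interaction differed between genes. For CCL2 and TNFSF15, sh-FOXO1 cells differed from sh-scrambled cells by −0.19 and 0.20 with doxycycline and by 3.00 and 2.22 without it. For CCL5 the difference was −0.96 with doxycycline and 0.16 without it. CCL20 differed in both states, lower in sh-FOXO1 cells with doxycycline and higher without it. The comparisons share arrays, so their values for a gene are not independent.

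On the plasmid arrays, CDK2-resistant FOXO1 stood above empty vector for CCL2, CCL20 and TNFSF15. With 1 array a group these differences have no replicate check, and a gene was counted past a log2 difference of 0.7. CCL2 was at 8.93 with CDK2-resistant and at 5.55 with AKT-resistant FOXO1, against 6.83 with empty vector. These are differences of 2.10 and −1.28, so the mutants lay on opposite sides of the control. FOXO1 also differed between the mutants: its probe set 202723_s_at, which reads endogenous FOXO1 too, was at 7.06 on the CDK2-resistant and 8.30 on the AKT-resistant array, against 5.84 with empty vector. By 228484_s_at, under the lower quartile in all other groups, the levels were 8.11 and 8.84, against 3.97, and by 202724_s_at 5.61 and 5.71, against 5.88.

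CCL20 was at 8.24 with CDK2-resistant and at 7.04 with AKT-resistant FOXO1, against 6.82 with empty vector. TNFSF15 by 229242_at was at 6.53 with CDK2-resistant and 5.38 with AKT-resistant FOXO1, against 5.20 with empty vector. By 221085_at both mutants were about 0.40 above empty vector at levels under the lower quartile, so the TNFSF15 difference of 1.33 with CDK2-resistant FOXO1 was seen in 1 of 2 probe sets. CCL7 was between 3.49 and 4.12 and CCL5 by 1405_i_at between 3.72 and 3.94 on these 3 arrays, near or under the lower quartile. CSF1 by 209716_at was at 5.54 with AKT-resistant and 6.25 with CDK2-resistant FOXO1, against 6.14 with empty vector.

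With CDK2-resistant FOXO1 3 of 6 genes were past the limit, all higher, where 1.73% of all genes were higher and 1.54% lower. With AKT-resistant FOXO1 CCL2 alone was past it, lower, where 1.69% were higher and 1.51% lower. The control arrays were not alike for all genes. CCL20 was at 6.82 with empty vector but at 4.99 and 4.90 in sh-scrambled cells without doxycycline, and CCL2 at 6.83 but 5.92 and 6.03. Against the mean of these 3 arrays, CCL20 was higher by 2.66 on the CDK2-resistant array and by 1.47 on the AKT-resistant array. CCL2 then stood at −0.71 with AKT-resistant and 2.67 with CDK2-resistant FOXO1.

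**Figure D3:**
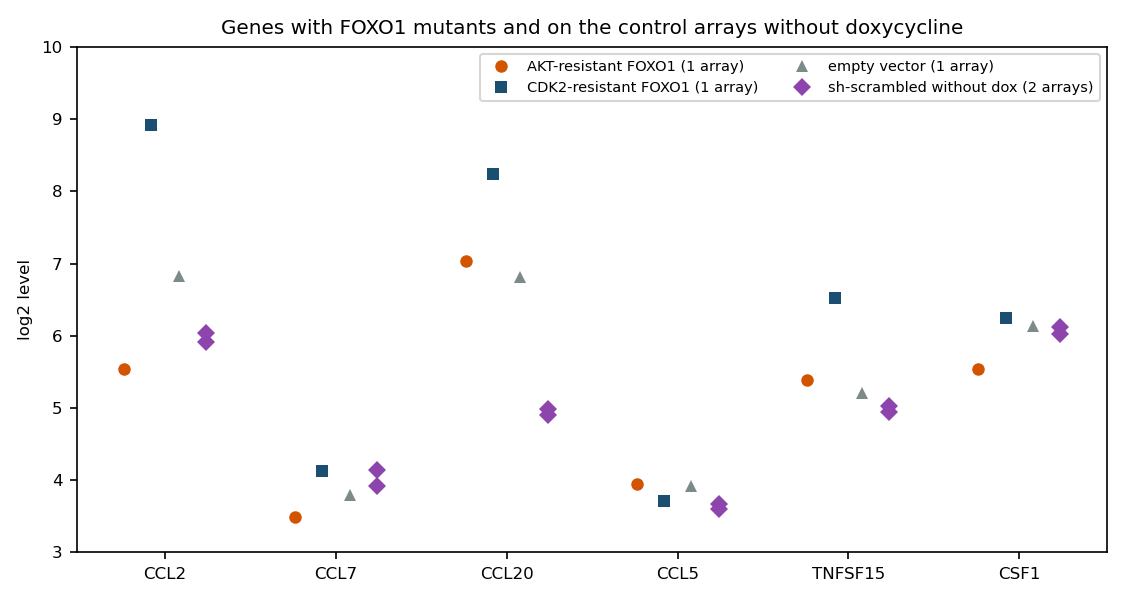
Log2 level (y axis) of the probe set used for each of the 6 genes (x axis) for the AKT-resistant mutant, the CDK2-resistant mutant and empty vector, and on the 2 sh-scrambled arrays without doxycycline; each point is 1 array. CCL2 reads 5.55 and 8.93 with the mutants against 6.83 with empty vector, and CCL20 reads 6.82 with empty vector against 4.99 and 4.90 in sh-scrambled cells.

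Over all 7 groups, by the probe set used for each gene, the order of levels differed between genes. CCL2 was highest in sh-scrambled cells with doxycycline, just above sh-FOXO1 cells with it. The CDK2-resistant array then lay inside the range of sh-FOXO1 cells without doxycycline, and empty vector, sh-scrambled cells and AKT-resistant FOXO1 followed. CCL20 ran in the same order to the second place, after which the CDK2-resistant array at 8.24 came before sh-FOXO1 cells without doxycycline at 7.36 and 7.79. TNFSF15 had the other order at the top, with sh-FOXO1 cells with doxycycline at 10.91 and 10.96 above sh-scrambled cells with it at 10.75 and 10.71. For each of the 6 genes by these probe sets the 4 doxycycline arrays stood above the other 7, which did not hold for the other 3 CSF1 probe sets. Nothing is read from this, since the genes were chosen on these arrays and the share of all genes separated in this way was not counted. CCL7 and CCL5 also passed the filter on doxycycline arrays alone. The level of CCL7 in the 2 doxycycline groups overlapped, as did that of CSF1, so no order can be given between them.

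The patterns most like each gene, by Pearson correlation over the 11 arrays, were those of IL1B (0.987), FAM167A (0.98) and NINJ1 (0.978) for CCL2. For CCL20 they were IL15RA (0.979), PSMB8 (0.978) and RFX3 (0.978). For TNFSF15 they were IL1R1 (0.991), RGS16 (0.991) and ZBTB46 (0.989). CCL7 was most like WIPI1 (0.998), CAMK2D (0.997) and LOXL2 (0.997), and CCL5 most like DKK1 (0.995), C2CD4A (0.994) and RERG (0.993). CSF1 was most like COL5A1 (0.992), ST3GAL2 (0.988) and SULF2 (0.988). All of these correlations are set largely by the doxycycline arrays, which the points share.

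The related genes were taken from lists of other ligands, receptors and NF-kB genes, 75 genes of which 64 had a named probe set and 26 passed the filter. The lists were written with earlier results of these data known, so the counts and adjusted p-values of their genes are a description. Of other CC ligands, 3 of 16 named genes passed the filter. CCL8, which attracts monocytes and lies in the chromosome 17 cluster after CCL2, CCL7 and CCL11, was at 7.94 and 8.14 in sh-scrambled cells with doxycycline, against 3.79 and 3.78 without it. The difference was 4.25 there and 3.67 in sh-FOXO1 cells. CCL8 passed the filter through the doxycycline arrays and lay under the lower quartile without doxycycline in the shRNA groups, so a difference was required and its exact size is uncertain. CCL11 between them and CCL1 beyond them did not pass the filter, with highest levels of 4.80 and 4.85. CCL4 at 0.87 and CCL22 at 0.11 did not pass the limit in sh-scrambled cells. They too passed the filter on doxycycline arrays alone.

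None of the 12 named CC chemokine receptor genes passed the filter, and the highest level of any of their probe sets was 5.27. The TNFSF15 receptor TNFRSF25 was at 6.21 and 6.13 in sh-scrambled cells with doxycycline, against 5.93 and 5.77 without it, a difference of 0.32 that did not pass the limit. CSF1R, the receptor of CSF1, was between 5.45 and 6.06 on all arrays, and its difference in sh-scrambled cells was 0.13 (adjusted p = 0.32, limma). The alternative CSF1R ligand IL34 differed by 0.05 in sh-scrambled cells (adjusted p = 0.72, limma).

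Among other TNF superfamily ligands, 3 of the 7 that passed the filter rose and 1 fell with doxycycline in sh-scrambled cells. TNF, a main activator of NF-kB, rose by 1.73 (adjusted p = 6.8e-06, limma). TNFSF18 and TNFSF4, which costimulate T cells, were higher by 3.74 and 2.45. TNFSF13B, a survival factor of B cells, fell by 1.07 (adjusted p = 0.00027, limma) and by 1.52 in sh-FOXO1 cells (adjusted p = 4.0e-05, limma). TNFSF18 and TNFSF4 each reached at most 4.48 on any array without doxycycline, so they too passed the filter through the doxycycline arrays and had to differ.

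TNF shared the pattern of a higher level in sh-FOXO1 cells without doxycycline. It was at 5.77 and 6.12 in sh-FOXO1 cells, against 5.03 and 4.83 in sh-scrambled cells, and rose by 1.01 (adjusted p = 0.00081, limma). TNFSF18 and TNFSF4 did not pass the limit there. KITLG, the ligand of the receptor KIT, went another way. It was at 8.03 and 8.14 in sh-FOXO1 cells with doxycycline, against 6.42 and 6.56 in sh-scrambled cells with it, a rise of 1.59 (adjusted p = 5.0e-05, limma), and its interaction was 1.46 (adjusted p = 0.00065, limma).

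Of 10 NF-kB subunits and inhibitors tested, 6 rose with doxycycline in sh-scrambled cells: NFKBIZ, a co-regulator of NF-kB, by 3.72 (adjusted p = 4.2e-07, limma), TNFAIP3, a feedback inhibitor, by 3.15 (adjusted p = 2.4e-08, limma), NFKB1 by 2.08, NFKB2 by 2.06, NFKBIA by 2.00 and RELB by 1.35. In sh-FOXO1 cells 2 of the 10 rose, NFKBIZ by 1.50 (adjusted p = 8.1e-05, limma) and TNFAIP3 by 1.04 (adjusted p = 8.4e-06, limma). The other 4 in sh-scrambled cells were inside the limit, and NFKBIB, an NF-kB inhibitor, stood at −0.44 in sh-FOXO1 and −0.39 in sh-scrambled cells.

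Without doxycycline, TNFAIP3 was at 9.58 and 9.72 in sh-FOXO1 cells, against 7.38 and 7.46 in sh-scrambled cells, and rose by 2.23 (adjusted p = 4.6e-06, limma). NFKBIZ was at 8.81 and 9.23 in sh-FOXO1 cells, against 6.92 and 7.29 in sh-scrambled cells, and rose by 1.92 (adjusted p = 0.00016, limma). NFKB1 rose by 0.71 (adjusted p = 0.0013, limma). The interaction was called lower for 6 of the 10 genes, between −0.87 for RELB and −2.21 for NFKBIZ. With doxycycline NFKB2 fell by 1.12 in sh-FOXO1 against sh-scrambled cells.

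Over the 26 related genes, 10 rose and 1 fell with doxycycline in sh-scrambled cells and 6 rose and 1 fell in sh-FOXO1 cells. In sh-FOXO1 against sh-scrambled cells, 1 rose and 2 fell with doxycycline and 4 rose without it, and the interaction was higher for 1 and lower for 8. Of the 26, 38.5% were thus called higher for sh-scrambled cells, beside 8.10% of all genes, and 23.1% for sh-FOXO1 cells, beside 7.27%. Called lower were 3.85% in both, beside 7.49% for sh-scrambled and 6.38% for sh-FOXO1 cells. CCL8, TNFSF18 and TNFSF4 had to differ, and CCL4 and CCL22 also passed the filter on doxycycline arrays alone. The lists were written with earlier results of these data known. These shares and those below are thus a description and no test. In FOXO1 silencing, 3.85% were called higher and 7.69% lower with doxycycline, beside 3.08% and 2.37% of all genes, and 15.4% higher without it, beside 3.45%. The interaction was called lower for 30.8%, beside 2.45%, and higher for 3.85%, beside 1.46%. Their median differences were 0.61, 0.29, −0.12, 0.17 and −0.36 in that sequence of comparisons, beside −0.06, −0.07, −0.00, 0.01 and −0.00 over all genes. With AKT-resistant FOXO1 1 was past 0.7, TNFSF18 at 4.48, against 3.58 with empty vector, a difference of 0.90. The empty vector level lay under the lower quartile, and sh-scrambled cells without doxycycline were at 4.08 and 4.05. The size of this difference between single arrays is thus uncertain. With CDK2-resistant FOXO1 TNFAIP3 stood at 8.83 and NFKBIZ at 8.72, against 8.24 and 8.06 with empty vector, both inside the limit.

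**Figure D4:**
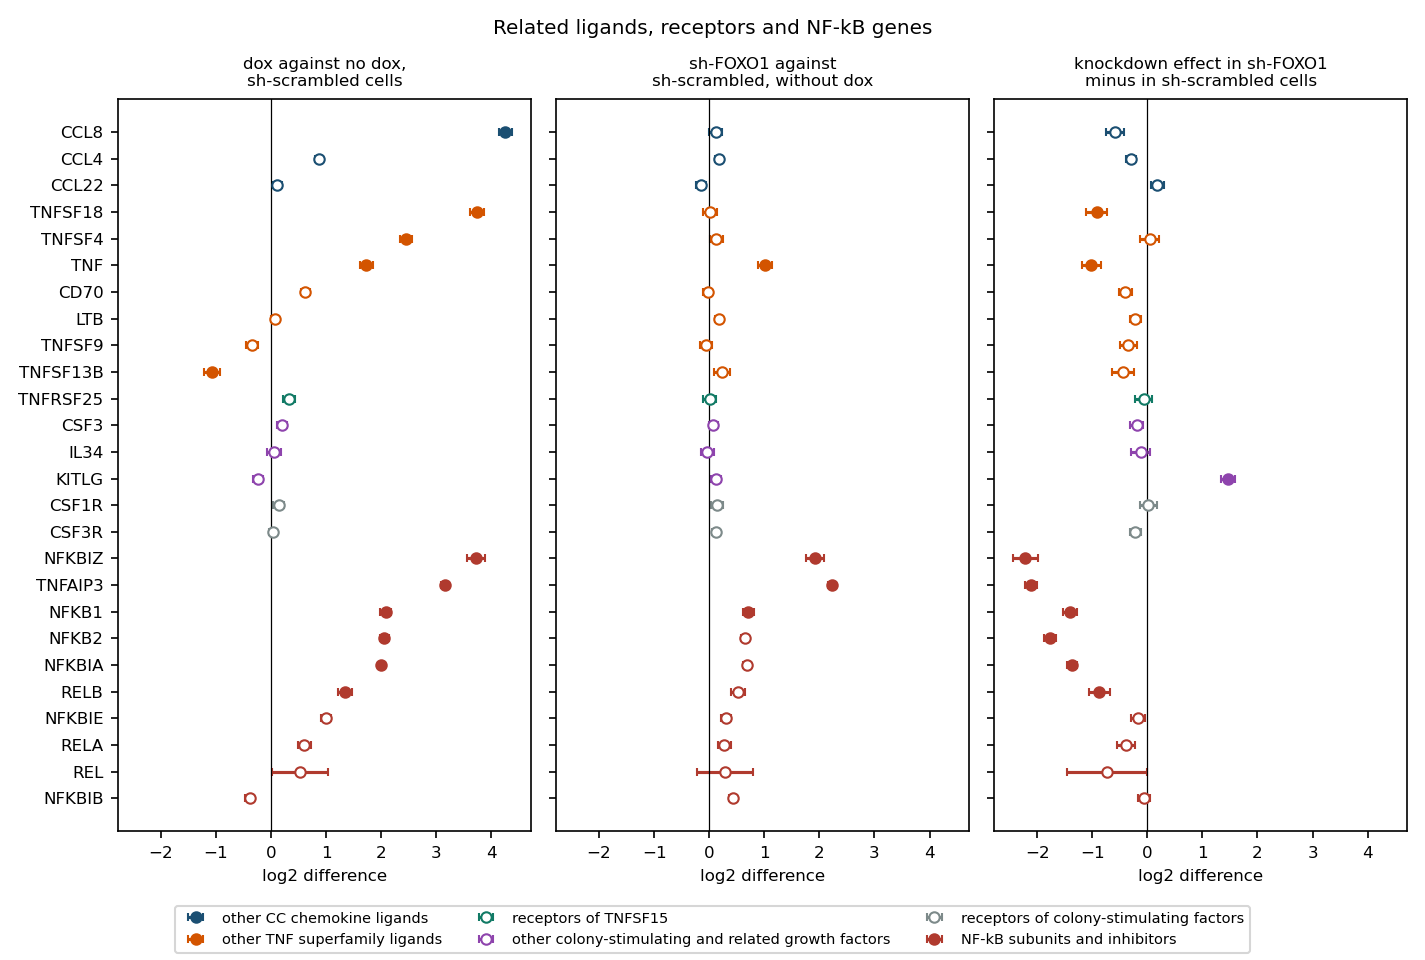
Log2 differences (x axes, bars show 1 standard error of the limma model) of the 26 related genes that passed the filter (rows, coloured by list) with doxycycline in sh-scrambled cells, in sh-FOXO1 against sh-scrambled cells without doxycycline, and in the interaction; filled points were called. NFKBIZ and TNFAIP3 lie at 3.72 and 3.15, 1.92 and 2.23, and −2.21 and −2.11 in the 3 panels.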

How the data were processed

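The 11 samples were profiled on 1 Affymetrix array each, and the authors deposited 1 normalized value per probe set for 54675 probe sets. The deposited values, summarised and normalized by the authors, range over 2.60 to 14.6 and were read as log2, as neither the base nor the normalization is given in the sources used here. The platform annotation gives 1 gene symbol for 41097 probe sets, several for 1801 and none for 11777. A probe set was kept if it reached the 60th percentile on any array. The kept probe set with the largest interquartile range stood for its gene, giving 12326 genes.

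With limma 3.58.1 in R 4.3.3, means of the 7 groups were fitted to all 11 arrays with Benjamini-Hochberg adjustment, with 4 residual and 3.90 prior degrees of freedom. Limits on the log2 difference were 1 for EWS-FLI1 knockdown and 0.7 for the other comparisons. The fit was tested on simulated data with noise drawn independently for each array, so deviations shared by a replicate number were not covered. The labels do not say that replicates came from separate cultures, so a p-value reflects the spread among these arrays alone, possibly technical, and the number of arrays limits the precision. Named genes are those of the set, at most 3 called genes of each related list and comparison by size, and the 3 genes most correlated with each gene of the set; others in the report were named after their values were seen. The genes of the set and the lists were chosen with earlier results of these data known. Promoter sequences are from RefSeq (GRCh38.p14), and 3 of the 6 measured genes had an entry. Alternatives were another probe set rule, no filter, quantile normalization, a variance prior with intensity trend, the replicate number as a block, leaving out each shRNA array in turn and a control mean of 3 arrays for the mutants.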

Additional observations from a re-analysis of the deposited data

Results flagged for a closer look

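The knockdown difference in sh-FOXO1 cells minus that in sh-scrambled cells passed the test of the difference itself (limma, adjusted p under 0.05 and past 0.7) for 9 related genes, beside the 4 genes of the set already given as a description. In the set it was −3.53 for CCL20, −3.19 for CCL2, −2.01 for TNFSF15 and −1.11 for CCL5. By their other probe sets it was −1.21 for TNFSF15 and −0.88 and −0.49 for CCL5, the last inside the limit. Among NF-kB genes it was −2.21 for NFKBIZ, −2.11 for TNFAIP3, −1.77 for NFKB2, −1.40 for NFKB1, −1.36 for NFKBIA and −0.87 for RELB. Among ligands it was −1.02 for TNF, −0.92 for TNFSF18 and 1.46 for KITLG. The related lists were also written with earlier results of these data known, so the calls of these genes are a description.

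For 3 of these the call was lost when 1 array was left out. RELB lost it for 6 of the 8 shRNA arrays left out in turn, with values of −0.94 to −0.70. TNFSF18 lost it for 4, with values of −0.99 to −0.74, and TNF for 2, at −0.98 without the first sh-scrambled array with doxycycline and also without the second sh-FOXO1 array with it.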

How the results depend on the processing

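The 6 calls of EWS-FLI1 knockdown in sh-scrambled cells and the 4 of the interaction held for every array left out. Leaving out 1 array gave 5 to 6 called genes of the set for the knockdown in sh-FOXO1 cells, where CSF1 was lost at 0.994 without the second array of sh-FOXO1 cells with doxycycline or at 0.995 without the second of those without it. It gave 3 to 4 for FOXO1 silencing without doxycycline, where CCL7 was added at 0.74 without the first sh-FOXO1 array and at 0.72 without the second sh-scrambled array. Of related genes it gave 3 to 5 for FOXO1 silencing with doxycycline, the 5 without the second sh-scrambled array with doxycycline, where NFKB1 was added at −0.78 and NFKBIA at −0.71. TNFAIP3 was lost at 0.97 for the knockdown in sh-FOXO1 cells without their first array without doxycycline, and NFKB1 for FOXO1 silencing without doxycycline at 0.65 without that array and at 0.63 without the second sh-scrambled one.

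With the probe set of the highest mean, 1 gene of the set was called for FOXO1 silencing with doxycycline instead of 2, since CCL5 stood at −0.70, and CCL5 was also lost for the knockdown in sh-FOXO1 cells at 0.94. Against the mean of 3 control arrays, AKT-resistant FOXO1 moved 2 genes of the set and 3 related genes past the limit instead of 1 each, and CDK2-resistant FOXO1 moved 4 related genes, where against empty vector it moved none. Without the filter and with quantile normalization this last count was 1. No called difference of the set reversed. Of the others, for FOXO1 silencing with doxycycline, CSF1 turned to 0.09 without the first sh-scrambled array with doxycycline, and CCL7 to −0.05 without that array and to −0.11 without the second sh-FOXO1 array with it.

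Replicate numbers share no stated batch, and the replicate 1 minus 2 deviations of the shRNA groups correlated at 0.44 to 0.621. The replicate number as a block left the calls of the set at 6, 6, 2, 3 and 4 and added REL to the interaction at −0.73. Without the block the standard error for REL was 0.72. Its replicates lay far apart, at 5.37 and 6.75 in sh-scrambled cells without doxycycline. Over all genes it called 225 higher and 328 lower for the interaction, against 180 and 302 without it.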
